A study of Mus musculus with 14 samples.

Results

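The SLC25 family holds the carriers that move metabolites across the inner mitochondrial membrane, and its transcripts were followed here in 14 mouse heart libraries. Its members were taken by name: every protein-coding gene of GENCODE M21 whose symbol starts with *Slc25a*, apart from the iron carriers *Slc25a28* and *Slc25a37*, together with *Ucp2*. This gave 46 of the 54532 genes in the deposited count tables, and all 46 had a row. The rule itself uses names and no measured value, although it was set with earlier results of these data known.

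The groups were 4 hearts labelled WT, 4 labelled YG8-800, 3 of female KIKO-700 mice and 3 of male KIKO-700 mice. All were C57BL/6 by the labels, which give postnatal day 180, whereas the text of the study gives a later age. YG8-800 mice carry a null allele of 1 mouse gene on both chromosomes and 1 copy of a human transgene, and the WT mice are described as their littermates. KIKO-700 mice carry 1 altered knock-in allele and 1 deleted allele, and the line descends from few chimeras. WT mice of the KIKO-700 cohort were not analysed here. Groups are called by their labels throughout, and higher or lower always refers to libraries as they are labelled. The labels do not say that libraries of a group are separate animals, although the study's methods do.

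An SLC25 carrier is a small membrane protein built from repeated modules around a central cavity that opens to 1 side of the inner membrane at a time. The outer membrane is porous to small molecules, so these carriers decide which nucleotides, acids, amino acids and cofactors enter or leave the matrix. The heart makes most of its ATP in mitochondria and depends on the exchange of matrix ATP for cytosolic ADP, on phosphate import, on acylcarnitine import for fatty acid oxidation and on the malate-aspartate shuttle for reducing equivalents.

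The libraries hold tags of 3′ transcript ends (Lexogen QuantSeq FWD), so a transcript gives about 1 tag whatever its length. Levels are given as CPM, the count of a gene relative to the effective size of its library, with TMM scaling over all 14 libraries. Total counts ran from 5226233 to 11650840 per library, of which genes of mitochondrial DNA took 28.9% to 44.6%. *Xist*, an RNA of female cells, was above 10 CPM in 3 of the 4 WT, 2 of the 4 YG8-800, 3 of the 3 female and 0 of the 3 male KIKO-700 libraries, while the study describes male mice only for the YG8-800 experiment. Ventricular markers fitted the tissue label. The sum of 8 such genes (*Myh6*, *Myl2* and others) was 21158 to 41217 CPM in WT, 27506 to 40740 in YG8-800, 36533 to 39625 in female and 33297 to 43908 in male KIKO-700 libraries, with no gene of the list at 0 in all libraries. In bulk tissue, fewer cells of a type and less RNA per cell cannot be told apart.

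The promoters of *Slc25a4* and *Slc25a5* are shown first because these genes encode carriers of the same cargo and yet stood far apart in level in every library. The windows run from 250 bases before to 50 bases after the RefSeq start of each gene (build GRCm38.p6), at chr8:46211013-46211312 on the minus strand for *Slc25a4* and chrX:36795347-36795646 on the plus strand for *Slc25a5*. Capitals mark TATAA, searched on the sense strand, and CCGGAAG, searched on both strands. The motifs do not overlap in either window.
Slc25a4: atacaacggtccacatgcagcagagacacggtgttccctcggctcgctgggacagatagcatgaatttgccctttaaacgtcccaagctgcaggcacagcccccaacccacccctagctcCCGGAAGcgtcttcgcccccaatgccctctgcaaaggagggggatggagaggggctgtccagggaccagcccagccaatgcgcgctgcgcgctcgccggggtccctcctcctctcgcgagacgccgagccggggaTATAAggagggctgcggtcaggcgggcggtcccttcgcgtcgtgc
Slc25a5: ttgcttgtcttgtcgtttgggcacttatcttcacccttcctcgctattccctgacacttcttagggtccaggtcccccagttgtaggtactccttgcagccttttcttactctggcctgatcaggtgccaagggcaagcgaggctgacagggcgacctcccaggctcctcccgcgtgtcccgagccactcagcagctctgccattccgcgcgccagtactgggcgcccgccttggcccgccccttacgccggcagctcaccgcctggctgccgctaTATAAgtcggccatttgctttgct

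Of the 46 members, 36 had an entry in the RefSeq promoter table. Among the 10 with none were *Slc25a2*, *Slc25a26*, *Slc25a27*, *Slc25a32*, *Slc25a35*, *Slc25a41*, *Slc25a44*, *Slc25a46* and *Slc25a51*. TATAA was present for 3 of the 36 members, which were *Slc25a4*, *Slc25a5* and *Slc25a21*, and in 17.5% of all 32851 windows of this length. CCGGAAG was present for 7 of the 36, which were *Slc25a3*, *Slc25a4*, *Slc25a17*, *Slc25a20*, *Slc25a25*, *Slc25a38* and *Slc25a54*, and in 8.86% of all windows. The 36 members have 46 windows, of which 3 held TATAA and 7 held CCGGAAG. The 2 adenine nucleotide carriers therefore share TATAA but not CCGGAAG in these windows. In both, TATAA lies after the RefSeq start and not before it, at 5 bases from it for *Slc25a4* and 26 for *Slc25a5*. These positions depend on the annotated start. GENCODE M21 starts *Slc25a5* at 36795651, past the end of its window, so that TATAA lies before that start. For *Slc25a4* the GENCODE start, at 46211284 on the minus strand, also has TATAA after it. A match is a string of letters in a window and was not tested as a binding site.

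The carriers of the heart formed a steep order. A mean of at least 100 CPM was reached by 5 members, 12 lay between 10 and 100 CPM, 18 between 1 and 10 CPM, and 11 were under 1 CPM. The family as a whole took 0.423% to 0.665% of the counts of a library, and *Slc25a4* alone took 59.0% to 75.7% of the family's counts. The 12 highest members held 96.6% to 98.2% of the family's summed CPM. Because a 3′ tag does not scale with length, CPM was used for the order, but 11 of the first 12 members were also among the first 12 when CPM was divided by exon length. *Ucp2* was the exception, at 18 in that order.

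**Figure D1:**
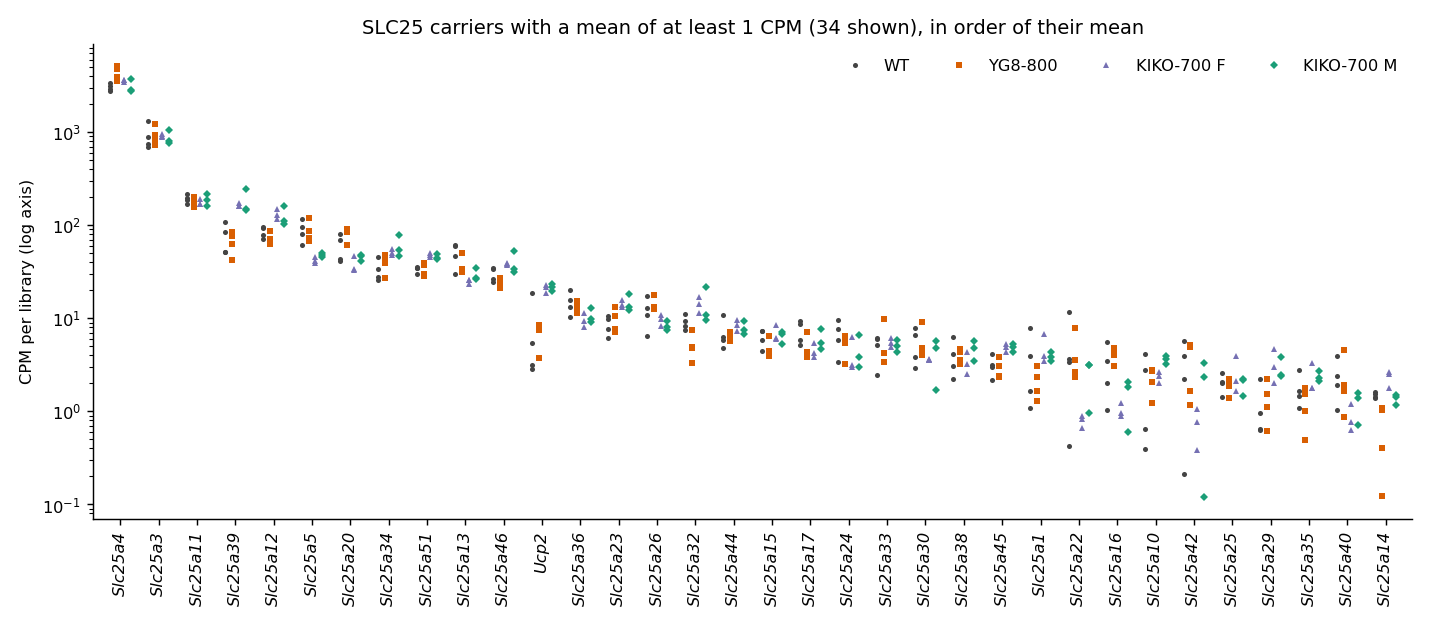
Level of 34 carriers with a mean of at least 1 CPM in each of the 14 libraries. The vertical axis is CPM on a log scale, carriers stand in order of their mean from left to right, and each point is 1 library, with circles for WT, squares for YG8-800, triangles for female and diamonds for male KIKO-700. *Slc25a4* stands alone at 2767 to 5188 CPM, *Slc25a3* follows, and libraries of the same group spread widest for *Slc25a42*, *Slc25a22* and *Ucp2*.

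ATP export and phosphate import led this order. *Slc25a4* (chromosome 8, 46206797-46211284 on the minus strand, GRCm38), the ADP/ATP exchanger of heart and muscle, was at 3148, 2767, 2909 and 3411 CPM in WT 1 to WT 4. In YG8-800 1 to YG8-800 4 it was at 5188, 3933, 3563 and 4801 CPM. Every YG8-800 library thus lay above every WT library, with group means of 4371 ± 752 and 3059 ± 283 CPM (SD, n = 4 each). The female KIKO-700 libraries were at 3586, 3483 and 3669 CPM, and the males at 3677, 2771 and 2844 CPM. Male 1 stood with the females and males 2 and 3 lay below the females. *Slc25a3*, the phosphate carrier, was at 699 to 1302 CPM in WT and 721 to 1219 CPM in YG8-800, and at 880 to 947 CPM in female and 764 to 1051 CPM in male KIKO-700 libraries. Its groups overlapped, and its ranges in WT and YG8-800 were nearly the same.

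*Slc25a5*, the second ADP/ATP exchanger, was far lower. It was at 61.6, 117, 79.6 and 94.8 CPM in WT and at 118, 85.9, 68.3 and 72.6 CPM in YG8-800, which overlap. In KIKO-700 it was at 45.2, 41.6 and 39.7 CPM in females and at 46.1, 48.0 and 49.96 CPM in males. All 6 KIKO-700 libraries were under all 8 of the YG8-800 experiment, and the males were above the females. *Slc25a4* exceeded *Slc25a5* by 23.7 to 92.4 times in the libraries. *Slc25a31*, the third exchanger and mainly a carrier of the male germ line, had at most 4 counts in any library.

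The next carriers serve the malate-aspartate shuttle and carboxylate exchange. *Slc25a11*, which exchanges oxoglutarate for malate, was the steadiest of the first 5 members, at 157 to 218 CPM over all 14 libraries. *Slc25a12* and *Slc25a13*, which both export aspartate for glutamate, stood in different proportions. *Slc25a12* was at 62.3 to 94.8 CPM in the YG8-800 experiment and at 102.8 to 160 CPM in KIKO-700, where every library was higher. *Slc25a13* was at 59.7, 46.8, 60.6 and 29.8 CPM in WT, at 32.9, 33.5, 50.1 and 31.5 CPM in YG8-800, and at 23.1 to 35.0 CPM in KIKO-700. WT 4 was the lowest of the WT libraries and YG8-800 3 the highest of its group. *Slc25a10*, the dicarboxylate carrier, and *Slc25a1*, the citrate carrier, had means of 2.48 and 3.48 CPM, and the oxodicarboxylate carrier *Slc25a21* had at most 2 counts in any library.

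Fuel and cofactor carriers lay in the middle of the order. *Slc25a20*, the acylcarnitine carrier that fatty acid oxidation needs, was at 43.6, 69.4, 40.9 and 81.4 CPM in WT and 83.5, 90.8, 61.0 and 60.7 CPM in YG8-800, and at 33.4 to 47.7 CPM in KIKO-700. *Slc25a51*, the NAD+ carrier, was at 28.5 to 38.88 CPM in the YG8-800 experiment and at 42.9 to 50.2 CPM in KIKO-700. Those ranges do not overlap. *Slc25a39*, a carrier of glutathione, was at 85.0, 51.3, 51.5 and 107 CPM in WT, at 62.1, 42.2, 77.4 and 83.9 CPM in YG8-800, and at 145 to 243 CPM in KIKO-700. Its lowest KIKO-700 library was above its highest library of the other experiment. *Slc25a34*, whose cargo is not assigned here, was at 25.7 to 47.6 CPM and 46.2 to 79.4 CPM in the experiments, and *Slc25a46*, an outer membrane protein tied to mitochondrial shape and not to transport, was at 21.003 to 34.8 and 31.6 to 53.2 CPM.

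Among members of the order close to each other, *Slc25a39* and *Slc25a12* (means of 114 and 101 CPM) overlapped in range, as did *Slc25a5* and *Slc25a20* (69.2 and 55.7 CPM) and the run *Slc25a34*, *Slc25a51*, *Slc25a13* and *Slc25a46* (44.4 to 32.2 CPM). The ranges of *Slc25a4*, *Slc25a3* and *Slc25a11* over all libraries did not overlap.

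*Ucp2*, an uncoupling protein by name that carries carboxylates, had the widest range of the first 12 members, with 8.36 times between its lowest and highest library. It was at 5.401, 3.11, 2.83 and 18.9 CPM in WT and at 7.52, 3.70, 8.52 and 8.19 CPM in YG8-800. In KIKO-700 it was at 18.8 to 23.6 CPM. WT 4 therefore stood apart from its group and reached the lowest KIKO-700 level. Its relatives *Slc25a30* and *Slc25a14* had means of 4.76 and 1.41 CPM, and *Slc25a27* was at most 1.69 CPM.

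The carriers of the low range had few reads. Members with a mean of 1 to 10 CPM included *Slc25a15* for ornithine, *Slc25a17* for peroxisomal cofactors, *Slc25a38* for glycine, *Slc25a24* and *Slc25a25* for ATP-Mg and *Slc25a33* for pyrimidine nucleotides. *Slc25a41* and *Slc25a54* had no count in any library, which allows a level of up to 0.257 to 0.574 CPM per library (3 counts). *Slc25a2*, *Slc25a21*, *Slc25a43* and *Slc25a48* never exceeded 3 counts.

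Within related pairs, 1 member took most of the counts. *Slc25a4* held 96.0% to 98.5% of the counts of *Slc25a4* and *Slc25a5* in the YG8-800 experiment and 98.3% to 98.9% in KIKO-700. *Slc25a11* held at least 97.6% of its pair with *Slc25a10*, *Slc25a39* at least 93.2% of its pair with *Slc25a40*, and *Slc25a34* at least 91.0% of its pair with *Slc25a35*. The aspartate carriers shared their counts more evenly than these 4 pairs. *Slc25a12* held 53.7% to 75.7% of its pair with *Slc25a13* in WT and 58.9% to 73.2% in YG8-800, but 76.2% to 85.6% in KIKO-700.

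The lesser and lower pair members spread more. *Slc25a36* and *Slc25a33* both carry pyrimidine nucleotides, and *Slc25a36* was at 10.3 to 20.02 CPM in WT, 11.3 to 15.2 in YG8-800, 7.99 to 11.3 in female and 9.21 to 12.8 in male KIKO-700 libraries. *Slc25a33* was at 2.44 to 6.19 CPM in WT, 3.38 to 9.82 in YG8-800, 4.96 to 6.08 in female and 4.34 to 5.90 in male KIKO-700 libraries. WT and YG8-800 overlapped for both genes. *Slc25a23*, a carrier of ATP-Mg, was at 6.14 to 10.7 CPM in WT, 7.16 to 13.1 in YG8-800, 13.2 to 15.5 in female and 12.4 to 18.02 in male KIKO-700 libraries, and its relative *Slc25a25* was at 1.44 to 2.61 CPM in WT, 1.40 to 2.20 in YG8-800, 1.67 to 3.95 in female and 1.45 to 2.25 in male KIKO-700 libraries. *Slc25a40*, the relative of *Slc25a39*, was at 1.03 to 3.92 CPM in WT, 0.864 to 4.51 in YG8-800, 0.637 to 1.19 in female and 0.722 to 1.58 in male KIKO-700 libraries. These 3 also overlapped between WT and YG8-800. *Slc25a35* ranged over 1.09 to 2.75 CPM in WT, 0.494 to 1.76 in YG8-800, 1.78 to 3.31 in female and 2.105 to 2.72 in male KIKO-700 libraries. *Slc25a30* ranged over 2.95 to 7.83 CPM in WT, 4.07 to 9.12 in YG8-800, 3.55 to 3.70 in female and 1.68 to 5.66 in male KIKO-700 libraries. *Slc25a38*, the glycine carrier that haem synthesis needs, ranged over 2.22 to 6.30 CPM in WT, 3.21 to 4.71 in YG8-800, 2.51 to 4.33 in female and 3.49 to 5.66 in male KIKO-700 libraries. For these 3 as well, WT overlapped with YG8-800 and females with males.

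Shares of 9 pairs were compared between labels by an exact permutation test, two-sided, which cannot go below 0.0286 with 4 against 4 libraries and 0.100 with 3 against 3. No pair reached 0.05. The smallest value was that of *Slc25a4*, at 97.2% ± 0.884 in WT and 98.1% ± 0.330 in YG8-800 (SD, n = 4 each; exact permutation p = 0.0857, adjusted over the 9 pairs 0.429). *Slc25a30* held 76.0% ± 8.87 and 88.9% ± 8.71 of its pair with *Slc25a14* (SD, n = 4 each; exact permutation p = 0.143, adjusted 0.429). Without WT 1, the *Slc25a4* share passed an unadjusted 0.05. The remaining WT shares then all lay below those of YG8-800, which gives the lowest value that the test can reach there. Genes of the family with processed pseudogenes, *Slc25a5* among them, may share reads with those copies. Adding the counts of pseudogenes named after a member to that member turned no share's direction. Pseudogenes under other names, such as Gm names, were not added, so reads shared with those were not covered.

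**Figure D2:**
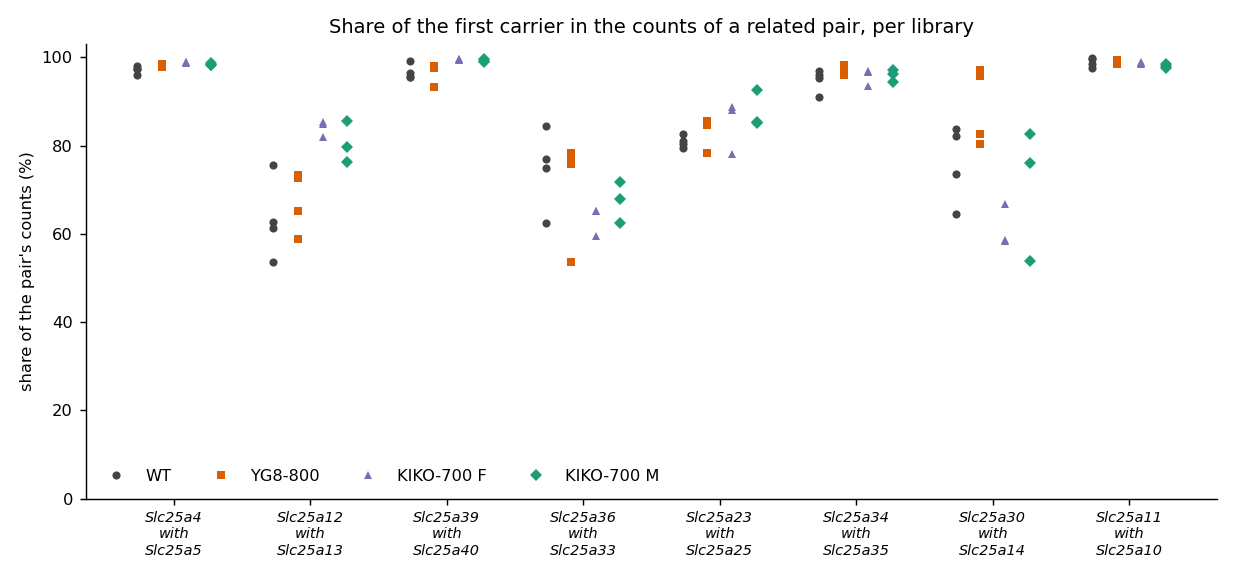
Share of the first carrier in the summed counts of a related pair, in percent from 0, for 8 pairs and each of the 14 libraries. Each point is 1 library, with circles for WT, squares for YG8-800, triangles for female and diamonds for male KIKO-700. *Slc25a4*, *Slc25a39*, *Slc25a34* and *Slc25a11* hold above 90% of their pairs in every library, and *Slc25a12* holds 53.7% to 85.6%.

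The first comparison by label, YG8-800 against WT, asks how the heart transcriptome of this line stands beside that of its littermates. The carrier family did not move as a block. Of the 34 members that passed the filter on low counts, 27 had a log2 fold change within 0.5 of 0. The median was -0.06, against -0.01 over all 11875 genes tested, and 14 of 34 members were above 0, as were 5873 of the 11875 genes. With library size as the only scaling the medians were -0.21 for all genes and -0.26 for the carriers, and then 6 of 34 members were above 0.

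No carrier passed the adjusted threshold of 0.05 in edgeR's quasi-likelihood test with Benjamini-Hochberg adjustment, and no gene of the whole table did (0.0%). DESeq2 called 7 genes and limma-voom 0, with no carrier among them. By the unadjusted threshold of 0.05, 0 carriers were higher, beside 3.04% of all genes, and 2 were lower, beside 3.01%. *Slc25a32* was 1 of the 2.

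*Slc25a32* (chromosome 15), which imports folate, was at 8.37, 11.009, 9.35 and 7.52 CPM in the WT libraries. In the YG8-800 libraries it was at 7.42, 3.33, 4.85 and 4.91 CPM. The groups do not overlap, although YG8-800 1 lies just below WT 4. Its log2 fold change was -0.78 (SE 0.30; edgeR quasi-likelihood unadjusted p = 0.0207, Benjamini-Hochberg adjusted p = 0.787). The unadjusted p stayed under 0.05 in 16 of 19 alternative settings, over which the log2 fold change ran from -1.03 to -0.58. Leaving out WT 2, YG8-800 2, or the pair WT 2 and WT 3 took it above 0.05.

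Among other cofactor carriers, *Slc25a16*, a carrier linked to coenzyme A, had a log2 fold change of 0.48 (SE 0.44). That value was 1.01 without WT 2, where it passed an unadjusted 0.05, 0.31 without WT 1 and 0.22 without WT 4, and it was 1.46 without both WT 2 and WT 3, where it passed as well. *Slc25a51* overlapped between the groups.

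Groups that do not overlap were found for 1 carrier that was higher, beside 1.47% of all genes, and for 2 that were lower, beside 2.42%. The higher one was *Slc25a4*, given above, with a log2 fold change of 0.55 (SE 0.28; edgeR quasi-likelihood unadjusted p = 0.0729). It passed an unadjusted 0.05 in DESeq2 and without WT 4, and in none of the other 17 of 19 alternatives. The sums of ventricular markers, given above, overlapped between the groups, but single markers did not all do so alike. *Myh6*, *Myl2*, *Tnnt2* and *Tnni3* were lower in WT 2 and WT 3 than in every YG8-800 library. For *Myl2* this was 1877 and 2253 beside 6182 to 9340 CPM. *Myl3*, *Actc1*, *Ryr2* and *Pln* did not show this. The part of these markers in the *Slc25a4* difference was not tested. The 2 carriers that were lower in YG8-800 without overlap were *Slc25a32* and *Slc25a14*, an uncoupling protein relative on chromosome X.

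*Slc25a14* was at 1.38, 1.44, 1.52 and 1.62 CPM in WT and at 0.401, 0.123, 1.03 and 1.09 CPM in YG8-800. It had the lowest log2 fold change of the members tested, at -1.13 (SE 0.57; edgeR quasi-likelihood unadjusted p = 0.0692), from at most 22 counts in a library. *Slc25a14* passed the filter on low counts only through the WT libraries, in which it was high. It thus had to come out lower in YG8-800, and its lack of overlap adds nothing to that. *Slc25a1*, the citrate carrier, followed at -0.78 (SE 0.53) on levels of 7.84, 1.68, 1.09 and 3.98 CPM in WT and 1.303 to 3.09 CPM in YG8-800, which overlap. Its value rests on WT 1, without which it was -0.12, and it was -1.47 without both WT 2 and WT 3. *Slc25a20* was at 0.36 (SE 0.28), the third highest. None of these 3 passed an unadjusted 0.05 with all 8 libraries. *Slc25a14* passed with library size as the only scaling, in limma-voom and without YG8-800 4, and *Slc25a1* passed without both WT 2 and WT 3.

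**Figure D3:**
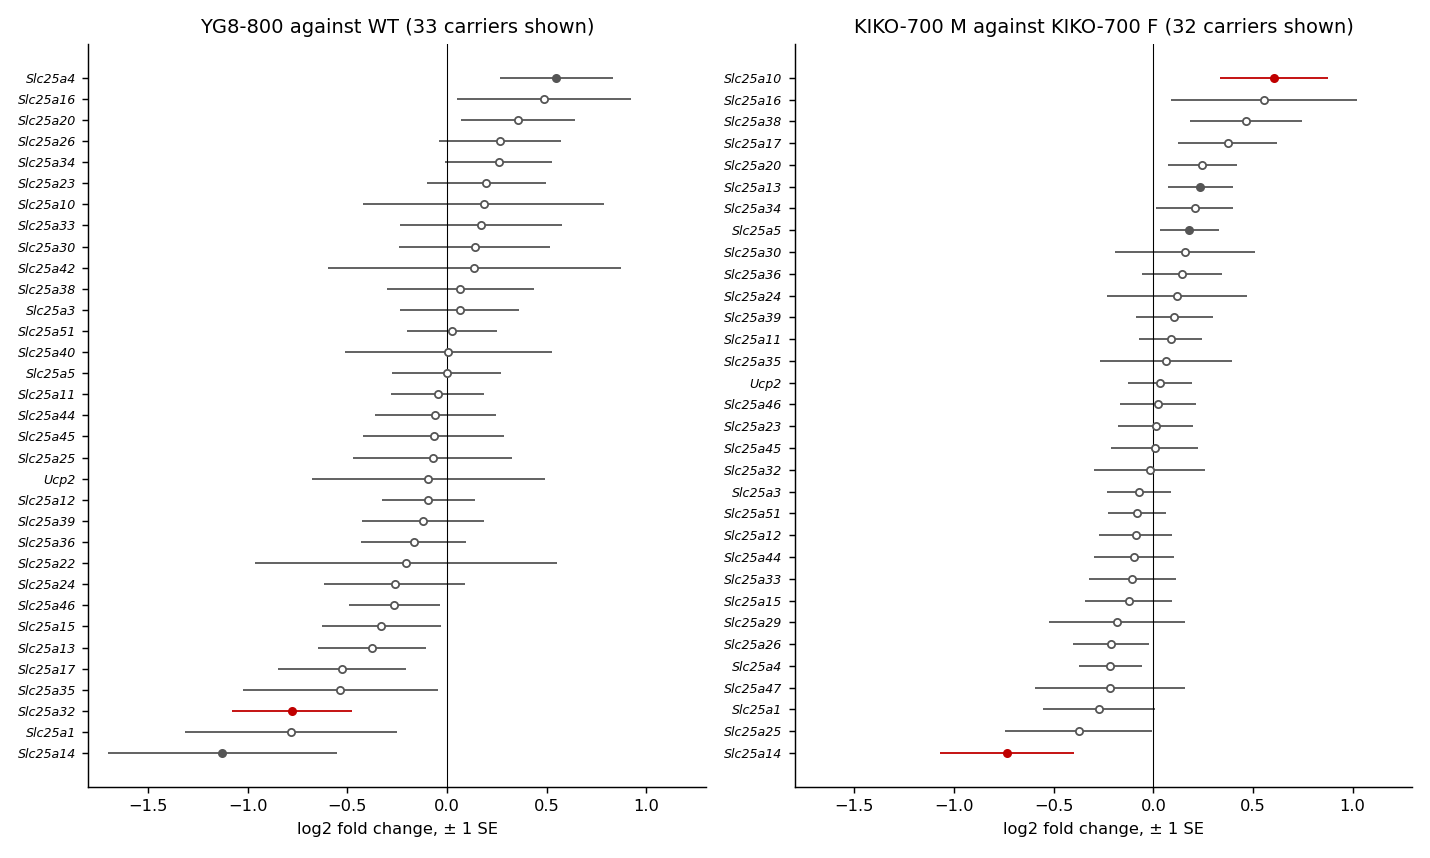
Log2 fold change of tested carriers with bars of 1 SE, on the left for YG8-800 against WT (33 carriers shown) and on the right for KIKO-700 males against females (32 carriers shown), in order of size. Red marks an unadjusted p under 0.05 in edgeR's quasi-likelihood test and filled points mark groups that do not overlap. On the left *Slc25a32* is red at -0.78 and *Slc25a4* is the highest at 0.55, and on the right *Slc25a10* at 0.61 and *Slc25a14* at -0.74 stand at the ends.

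WT 4 changed more of these counts than any other single library. Without it, 146 genes passed the adjusted threshold (1.19%), with no carrier among them. At an unadjusted p under 0.05 there were then 2 carriers higher, beside 8.9% of all genes, and 2 lower, beside 4.91%. The higher ones were *Slc25a4*, at 0.63 (SE 0.28), and *Ucp2*, at 0.93 (SE 0.37), and the lower ones were *Slc25a32*, at -0.84 (SE 0.32), and *Slc25a13*, at -0.54 (SE 0.25). With all 8 libraries *Ucp2* was at -0.09 (SE 0.58), so that its direction turned on WT 4.

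White adipocyte markers varied most among the WT libraries. The summed level of 5 such genes was 97.7, 102, 2.17 and 28.2 CPM in WT and 6.46 to 15.0 CPM in YG8-800, so that WT 3 lay below and the other three WT libraries above every YG8-800 library. At an unadjusted p under 0.05, 3 of the 4 tested were lower in YG8-800, beside 3.01% of all genes. None of them passed the adjusted threshold, and *Lep* was at 0 in all 4 YG8-800 libraries. The part of fat in the carrier values was not tested. Atrial markers summed to 460 to 1203 CPM in WT and 99.5 to 1426 CPM in YG8-800, which overlap.

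The KIKO-700 libraries allow a comparison of males with females of that line. Here 30 of 33 carriers tested had a log2 fold change within 0.5 of 0, with a median of 0.03 beside 0.01 over 11801 genes. In edgeR's quasi-likelihood test with Benjamini-Hochberg adjustment, 0 carriers and 8 genes (0.0678%) passed, and DESeq2 and limma-voom also called no carrier. At an unadjusted p under 0.05, 1 carrier was higher in males, beside 3.39% of all genes, and 1 was lower, beside 3.75%.

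*Slc25a10* (chromosome 11), which exchanges malate or succinate for phosphate, was at 2.39, 2.66 and 2.04 CPM in females and at 3.25, 3.68 and 3.94 CPM in males. Its log2 fold change was 0.61 (SE 0.27; edgeR quasi-likelihood unadjusted p = 0.0418, Benjamini-Hochberg adjusted p = 0.674). It passed an unadjusted 0.05 in 7 of 15 alternatives. *Slc25a14* was at 2.62, 1.78 and 2.55 CPM in females and at 1.44, 1.18 and 1.4996 CPM in males. Its log2 fold change was -0.74 (SE 0.34; edgeR quasi-likelihood unadjusted p = 0.0464, Benjamini-Hochberg adjusted p = 0.687), and it passed in 5 of 14 alternatives.

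Males and females did not overlap for 3 carriers that were higher in males, beside 5.82% of all genes, and for 1 that was lower, beside 6.77%. The higher ones were *Slc25a10*, *Slc25a13*, at 0.24 (SE 0.16), and *Slc25a5*, at 0.18 (SE 0.15), of which *Slc25a5* lies on chromosome X. The lower one was *Slc25a14*, also on chromosome X. The remaining carriers at the ends of the order were *Slc25a16* at 0.56 (SE 0.47), *Slc25a38* at 0.47 (SE 0.28), *Slc25a25* at -0.38 (SE 0.37) and *Slc25a1* at -0.27 (SE 0.28), all with overlapping groups and none at an unadjusted 0.05 with all 6 libraries.

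The count of carriers called between the sexes turned on KIKO-700 M 1. Without it, 2 carriers passed the adjusted threshold beside 7.06% of all genes, 9 were higher by the unadjusted threshold of 0.05 beside 10.9%, and 3 were lower beside 10.4%. The 2 were *Slc25a22*, a glutamate carrier (log2 fold change 1.98, SE 0.37, edgeR quasi-likelihood Benjamini-Hochberg adjusted p = 0.00202), and *Slc25a42*, a carrier of coenzyme A (1.86, SE 0.42, adjusted p = 0.00801). Neither passed the filter on low counts with all 6 libraries, and without male 1 they passed it only through the 2 males in which they were high, so that they had to differ. Among the other 10, *Slc25a4* was at -0.35 (SE 0.12), *Slc25a32* at -0.45 (SE 0.18), *Slc25a12* at -0.30 (SE 0.14) and *Slc25a16* at 0.92 (SE 0.40). *Slc25a16* lay near the filter on low counts in females (0.891 to 1.22 CPM, beside 1.84 and 2.06 CPM in males 2 and 3). The same limit may therefore bear on its value.

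*Slc25a22* was at 0.835, 0.666 and 0.891 CPM in females and at 0.962, 3.16 and 3.19 CPM in males 1 to 3. In WT it was at 0.424, 11.6, 3.70 and 3.39 CPM and in YG8-800 at 7.92, 3.58, 2.35 and 2.62 CPM. *Slc25a42* was also highest in males 2 and 3 of KIKO-700, at 0.382 to 1.07 CPM in females and at 0.120, 3.29 and 2.34 CPM in males. It was at 0.212, 5.66, 3.91 and 2.21 CPM in WT and at 4.91, 5.18, 1.17 and 1.64 CPM in YG8-800. WT 1 was the lowest and WT 2 the highest of the WT libraries for both genes. *Slc25a16* also had male 1 lowest in KIKO-700, at 0.601 CPM beside 0.891 to 2.06 CPM in the others.

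White adipocyte markers moved with sex in KIKO-700 as well. Their sum was 27.3 to 38.6 CPM in females and 7.76 to 11.72 CPM in males. At an unadjusted p under 0.05, 4 of the 4 tested were lower in males, beside 3.75% of all genes, and 1 passed the adjusted threshold. *Plin1* and *Cidec* passed the filter on low counts only through the females, in which they were high, so that these had to come out lower in males. *Acta1*, a skeletal muscle actin also found in the heart, was at 254 CPM in male 1, at 102 and 156 CPM in males 2 and 3, and at 66.4 to 88.5 CPM in females. The rest of the skeletal muscle list did not follow it. In male 1, *Myh1*, *Myh4* and *Mylpf* were at 0 and *Tnnt3* was at 0.361 CPM. The part of fat or of *Acta1* in the carrier differences was not tested.

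**Figure D4:**
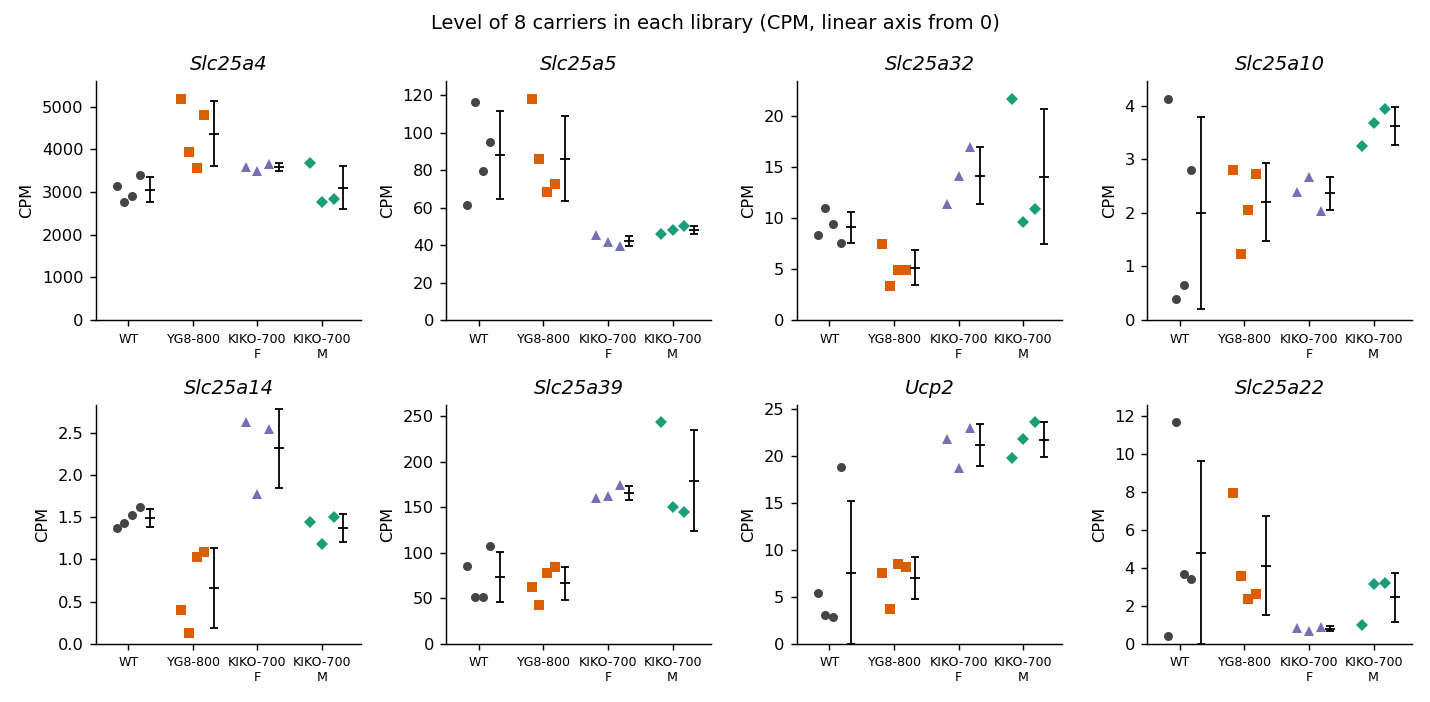
Level of 8 carriers in each library, in CPM on linear axes from 0, for WT and YG8-800 (4 libraries each) and female and male KIKO-700 (3 each). Points are libraries in the order of their numbers, and the black mark beside each group is its mean with bars of 1 SD, cut at 0 where they would run below it. *Slc25a4* is higher in all 4 YG8-800 than in all 4 WT libraries, *Slc25a32* and *Slc25a14* are lower, *Slc25a39* is higher and *Slc25a5* lower in all KIKO-700 libraries, and *Ucp2* and *Slc25a22* each have a WT library far above the others.

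The KIKO-700 libraries were also set beside those of the YG8-800 experiment. No test was made, since cohort and genotype cannot be told apart. Of 31 carriers tested in both experiments, 4 were higher in all 6 KIKO-700 libraries than in all 8 others, beside 7.16% of the 11208 genes tested in both, and 1 was lower, beside 4.26%. The higher ones were *Slc25a39*, with means of 173 ± 36.2 and 70.1 ± 22.0 CPM (SD, n = 6 and 8), *Slc25a12*, with 128 ± 22.4 and 80.3 ± 11.6 CPM, *Slc25a51*, with 46.7 ± 2.73 and 33.7 ± 3.82 CPM, and *Slc25a45*, with 4.86 ± 0.453 and 3.01 ± 0.701 CPM. The lower one was *Slc25a5*, with 45.1 ± 3.85 and 87.2 ± 21.3 CPM. The largest ratio of means, 2.96, was that of *Ucp2*, which overlapped through WT 4. Red blood cell markers summed to 13505 to 19460 CPM in KIKO-700 and to 1305 to 5753 CPM in the YG8-800 experiment, with none of the 5 at 0 in all libraries. Atrial markers were also higher in every KIKO-700 library (1592 to 2370 beside 99.5 to 1426 CPM). So were the sums of endothelial markers (254 to 369 beside 138 to 233 CPM) and brown adipocyte markers (48.1 to 56.2 beside 32.2 to 46.3 CPM). Single genes of these lists did not all do so. In the brown adipocyte list, *Cidea* (31.6 to 41.1 beside 12.6 to 34.1 CPM) and *Ppargc1b* (7.82 to 18.8 beside 7.96 to 22.5 CPM) overlapped. *Ucp1* and *Elovl3* overlapped too. The sum of fibroblast markers was lower (437 to 666 beside 760 to 1410 CPM), and the other marker lists overlapped. Of the fibroblast genes, *Dcn* (352 to 581 beside 655 to 1329 CPM) and *Pdgfra* were lower in every KIKO-700 library. *Col1a1* (29.6 to 41.5 beside 22.3 to 58.6 CPM) and *Lum* (33.5 to 64.1 beside 31.5 to 74.1 CPM) overlapped. The part of cell content in these levels was not tested.

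Other transport genes of the mitochondrion gave the setting for these values. Of 29 such genes, among them porins, the pyruvate carrier and the calcium uniporter, 27 were tested in YG8-800 against WT (median 0.12 on the log2 scale). By the unadjusted threshold of 0.05, 0 were higher, beside 3.04% of all genes, and 1 was lower, beside 3.01%. The lower one was *Cpt1b*, which makes the acylcarnitine that *Slc25a20* carries, at -0.55 (SE 0.25; edgeR quasi-likelihood unadjusted p = 0.0429, Benjamini-Hochberg adjusted p = 0.816). Between KIKO-700 males and females 28 were tested, and the median was -0.06. By the same threshold 1 was higher, beside 3.39% of all genes, and 2 were lower, beside 3.75%. *Mpc1*, a subunit of the pyruvate carrier, was at 0.73 (SE 0.22), *Sfxn5*, a sideroflexin, at -0.67 (SE 0.26) and *Ucp1*, the uncoupling protein of brown fat, at -2.23 (SE 0.54). None of the 29 passed the adjusted threshold in either comparison. *Ucp1* was at 0 to 3.46 CPM over the 14 libraries, so that its difference rests on few counts. In KIKO-700 it passed the filter on low counts only through the females, in which it was high, so that it had to come out lower in males.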

How the data were processed

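Heart RNA of 14 mice was read as Lexogen QuantSeq 3′ libraries. The files as deposited give raw counts for each Ensembl gene and were not normalized. How the authors counted is described in different ways. Rsubread and featureCounts stand in the methods of the study, but STAR (2.5.0a), HTSeq (0.6.1) and the build GRCm38.p6 stand in the submitters' processing notes. PCR copies could not be told from separate molecules, so that limits from counts cover counting error only. Of 54532 gene identifiers, 54409 matched GENCODE M21 and 123 did not.

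Here, low genes were removed by filterByExpr and libraries scaled by TMM. Tests were edgeR's quasi-likelihood test (4.0.16, robust, R 4.3.3), run separately for the 2 experiments, two-sided, with Benjamini-Hochberg adjustment and a threshold of 0.05. The script was tested on simulated data. SE is the fold change over the root of the F statistic. Pair shares used exact permutation tests. Alternatives were DESeq2 1.42.0, limma-voom (limma 3.58.1), other scalings and filters, a replicate block, an *Xist* covariate, mitochondrial DNA and Gm genes left out, and each library left out. Leaving out WT 2 and WT 3 together was chosen after seeing the data.

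Members, gene lists and tests were chosen with earlier results of these data known. Named with values or group ranges are the 12 highest members, those at an unadjusted p under 0.05, tested members of related pairs and the 3 highest and 3 lowest fold changes of each comparison. *Slc25a42*, *Slc25a45* and *Slc25a51* beyond their rank were named after their values were seen. Fold changes are printed only for members at an unadjusted p under 0.05, at the ends of the order, or with groups that do not overlap. Protein sequences of the carriers were not analysed here. Values of 1 member and of the gene altered in these lines are not reported here, and the figures leave that member out.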

Additional observations from a re-analysis of the deposited data

Results flagged for a closer look

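In groups of 4 libraries, 54 sets of values (27 named carriers in WT and in YG8-800) were checked for a library that stands apart by Dixon's gap test at its 95% critical value. It was passed by 4 sets, and chance alone gives about 1 in 20. *Slc25a13* reached 50.1 CPM in YG8-800 3, where the rest lay between 31.5 and 33.5 CPM. *Ucp2* reached 18.9 CPM in WT 4, where the rest of the group lay between 2.83 and 5.401 CPM. *Slc25a33* was at 9.82 CPM in YG8-800 1, beside 3.38 to 4.26 CPM, and *Slc25a30* was at 9.12 CPM in the same library, beside 4.07 to 4.85 CPM. No explanation was tested for any of them.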

How the results depend on the processing

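Carriers called at the adjusted threshold stayed at 0 for YG8-800 against WT under every alternative run. Over all genes, leaving out the filter on low counts gave 107 calls (1727 at an unadjusted p under 0.05) and DESeq2 gave 7. For KIKO-700 males against females, no filter gave 105 calls (1475 unadjusted) with 1 carrier, *Slc25a22*, at least 10 counts in every library gave 2, and DESeq2 gave 18. Carriers at an unadjusted p under 0.05 were 1 with at least 10 counts, 0 in DESeq2 and 1 in limma-voom. Replicate numbers did not pair libraries (r from -0.23 to 0.25 for the YG8-800 experiment and from -0.19 to -0.04 for KIKO-700), and a replicate block left 2 carriers in the first comparison and 0 in the second.

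Leaving out 1 library at a time gave 0 to 146 calls over all genes for YG8-800, with 484 to 1695 genes and 0 to 4 carriers at an unadjusted p under 0.05, and 0 to 1 pair shares. For KIKO-700 it gave 4 to 864 calls, 0 to 2 of them carriers, with 460.0 to 2610.0 genes and 0 to 12 carriers unadjusted. WT 4 and KIKO-700 M 1 gave the highest counts. *Slc25a1* ran from -0.46 to 0.066 and *Slc25a25* from -0.61 to 0.050 between the sexes, above 0 without KIKO-700 F 3. Differences in share (YG8-800 less WT, percentage points) changed sign for *Slc25a39* with *Slc25a40* (-0.379 to 1.24), *Slc25a36* with *Slc25a33* (-7.50 to 2.48) and *Slc25a11* with *Slc25a10* (-0.549 to 0.177). The cause was not tested. Of tested carriers whose fold change is not printed, 18 of 27 changed sign under at least 1 alternative for YG8-800 and 19 of 25 for KIKO-700. Levels near a few counts limit the carriers under 1 CPM.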
